A study of Homo sapiens
Mus musculus and Homo sapiens with 2 samples.

Results

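A549 cells exposed to dexamethasone for 4 h were compared with A549 cells exposed for 2 h. A549 is a human lung adenocarcinoma line, and dexamethasone is a synthetic glucocorticoid. The cells were chosen by the treatment time in the deposited cell annotation, which gave 1045 cells at 4 h and 1189 cells at 2 h. Together these were 2234 of the 7404 A549 cells and of the 13711 cells of the series, whose other sample, a mixture of HEK293T and NIH/3T3 cells, was not analysed here. The dose was 100 nM per the treatment protocol and 101 nM per a further label, and control cells received an equal volume of ethanol. Every A549 culture, the 0 h culture included, was given 200 µM 4-thiouridine (S4U) for its last 2 h. The labels show 1 culture at each time, so no difference below has a replicate check and no p-value is given. Ratios carry exact 95% intervals that cover counting error only.

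Dexamethasone binds the glucocorticoid receptor, a nuclear hormone receptor that moves into the nucleus, binds DNA and raises transcription of some genes while lowering that of others, among them many inflammatory genes. Some target genes respond to the receptor directly and early, and others respond later, through proteins that the early genes encode. Lung epithelial cells are a classical setting for this response, since glucocorticoids act on fluid transport, surfactant and inflammation in the lung. S4U is a uridine analog that enters RNA as it is made, and in the sci-fate assay the S4U bases are altered chemically in fixed cells, which marks the sequence of each molecule made during labelling.

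New RNA here means the counts in the authors' matrix of new molecules, and whole RNA means all counts. New RNA at 2 h was made in the first 2 h of treatment, and new RNA at 4 h was made between 2 h and 4 h. Levels are given in CPM, counts per 1000000 counts scaled by TMM, of the new or of the whole counts, and a run of 6 values covers the cultures of 0, 2, 4, 6, 8 and 10 h in that order. A CPM level of new RNA is a share of all new RNA and not a rate per cell. A gene was measured when it had 200 or more counts over the 2 h and 4 h cultures together, and it was called higher or lower when its 2 levels differed by 1.5-fold or more.

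The 2 h culture held 35724716 whole and 7257127 new counts, and the 4 h culture held 28870594 and 5865326. New RNA was 20.3% of whole RNA in both. The median cell held 5484 new counts at 2 h and 4907 at 4 h. Intronic counts made up 50.2% of new RNA at 2 h, 47.6% at 4 h and 46.2% at 0 h. All 190 PCR wells held cells of both times, whereas each reverse transcription barcode held cells of 1 time, so these barcodes and the time cannot be told apart.

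In new RNA, 99 of 9159 measured genes were higher at 4 h than at 2 h (1.08%) and 172 were lower (1.88%). The second window thus differed from the first in 271 genes, with more of them lower than higher. The first window differed from the untreated culture by far more: 921 of 9453 genes, or 9.74%, were past 1.5-fold between 0 h and 2 h in either direction. The later steps differed by less, with 0.831% of genes past 1.5-fold between 4 h and 6 h, 0.426% between 6 h and 8 h and 0.31% between 8 h and 10 h. The genes nearest the threshold were PLA2R1 (ratio 1.502) and FBXO43 (ratio 0.666) just inside, and HOXC13 (1.4985) and KCNH1 (0.667) just outside. The split moved with the scaling: 123 genes were higher and 137 lower with library totals alone, 117 and 141 with median-of-ratios size factors, and 120 and 138 with new counts scaled by whole counts.

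The called genes were sorted by what they had done in the first window. Of the 99 higher genes, 48 had already been 1.5-fold or more above 0 h at 2 h (still climbing), 22 had been within 0.32 of 0 h on the log2 scale (first induced in the second window), and 9 had been 1.5-fold or more below 0 h (recovering). The other 20 lay between these bounds. Of the 172 lower genes, 39 had been at least 1.5-fold below 0 h (still falling), 56 had been within 0.32 of it on the log2 scale (first lowered in the second window), and 25 had been at least 1.5-fold above it (already shut off). The other 52 lay between. The 4 h/2 h and the 2 h/0 h ratios share the 2 h culture, so a sampling error at 2 h moves a gene up in one ratio and down in the other.

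**Figure D1:**
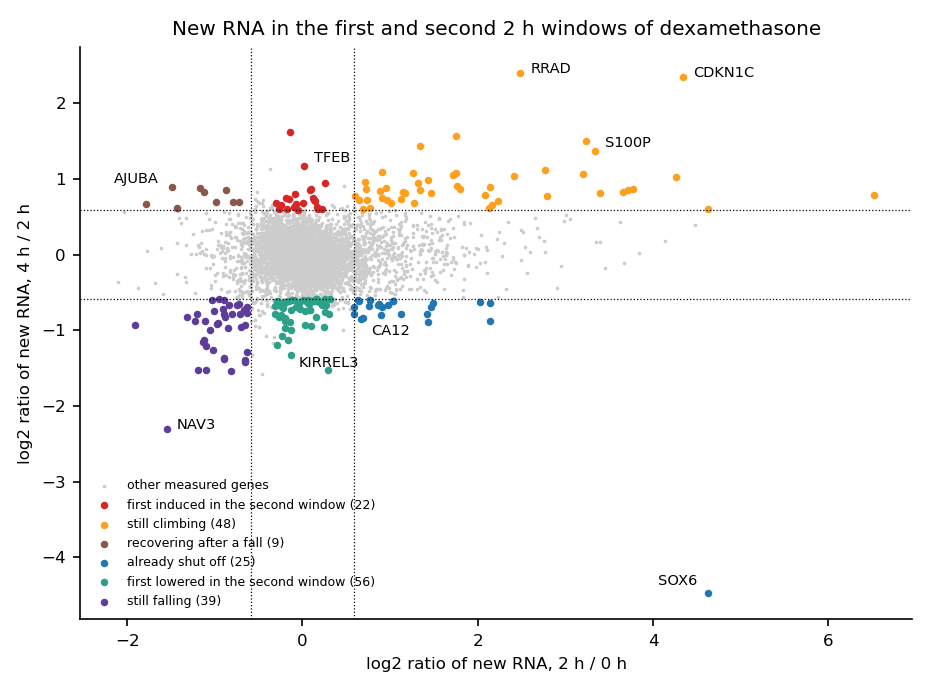
Each point is a measured gene, placed by its log2 ratio of new RNA between 2 h and 0 h (horizontal) and between 4 h and 2 h (vertical), with dotted lines at 1.5-fold. RRAD and CDKN1C stand highest on the vertical axis, NAV3 low on the left, and SOX6 apart at the lower right, where 1 barcode holds nearly all of its 2 h counts.

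The 12 protein-coding genes ranked highest by the lower bound of their new RNA ratio were led by RRAD, a small GTPase of the RGK family that restrains voltage-gated calcium channels. New RRAD RNA stood at 1.52, 8.51, 44.8, 58.8, 52.2 and 56.7 CPM over the 6 cultures. All 4 cultures from 4 h on lay above the 2 h culture, which itself lay above 0 h. The 4 h level was 5.27-fold the 2 h level (interval 3.98 to 7.08, from 61 and 266 new counts). CDKN1C, which encodes the cell cycle inhibitor p57Kip2, went from 0.276 CPM at 0 h to 5.58 at 2 h and 28.3 at 4 h, then stood at 30.01, 30.4 and 27.7 CPM. Its 4 h/2 h ratio was 5.08 (3.58 to 7.36), and its later levels stayed near that of 4 h.

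S100P, a small calcium-binding protein of epithelia, stood at higher levels than RRAD and CDKN1C, at 5.38, 54.4, 140, 144, 128 and 138 CPM, with a ratio of 2.58 (2.29 to 2.92). SLC2A14, a glucose transporter gene, stood at 1.66, 15.6, 44.2, 68.0, 64.2 and 68.0 CPM, with a ratio of 2.83 (2.26 to 3.56). It is a near-copy of SLC2A3, and no source used here says how reads shared by the pair were assigned, so the split between them is uncertain. SLC2A3 itself was 1.61-fold higher at 4 h than at 2 h.

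Epithelial junction and guidance genes followed. PPL, which encodes the desmosomal and cornified envelope protein periplakin, stood at 5.80, 14.6, 39.6, 33.5, 28.5 and 34.3 CPM, a 4 h/2 h ratio of 2.70 (2.14 to 3.44). EMP2, an epithelial membrane protein, was the most abundant of the 12 and kept a rising order across all cultures, at 56.7, 153, 303, 375, 453 and 522 CPM, with a 4 h/2 h ratio of 1.98 (1.84 to 2.14). Its ratio was 1.829 in the cells between the quartiles of depth, just outside that interval. PLXNA2, a semaphorin receptor, stood at 9.80, 33.1, 69.5, 78.7, 79.9 and 86.3 CPM, a ratio of 2.10 (1.79 to 2.48). In these genes the 2 h value lay between the 0 h value and every later one.

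CORO2A, an actin-binding coronin, had a different course. It stood at 3.31 CPM at 0 h, 22.6 at 2 h and 48.9 at 4 h (ratio 2.16, 1.78 to 2.64), and then at 36.3, 25.3 and 19.0 CPM, so its 10 h level was below its 2 h level. SYNC, an intermediate filament protein, stood at 19.9, 15.3 and 33.5 CPM at 0, 2 and 4 h and between 35.9 and 41.0 CPM later, a 4 h/2 h ratio of 2.19 (1.72 to 2.78). Its gene overlaps RBBP4 on the opposite strand in the annotation, and reads of the pair cannot be told apart without knowing whether counting used strand. The last 2 of the 12, RBFOX3 and TFEB, are described with the genes first induced in the second window.

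**Figure D2:**
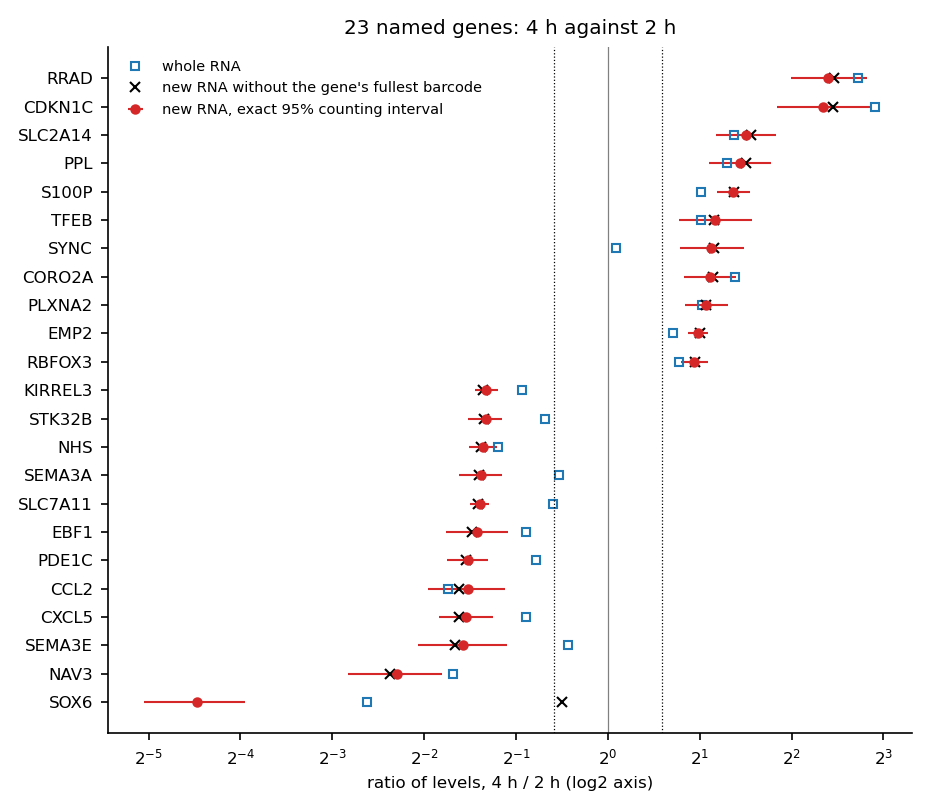
Ratio of the 4 h to the 2 h level (log2 axis) of 11 of the 12 higher genes and the 12 lower genes of the ranking, in new RNA (circles with exact 95% intervals), in whole RNA (squares) and in new RNA without the barcode holding most of the gene's counts in each culture (crosses). Without that barcode 22 of the 23 stay on the same side of the dotted 1.5-fold lines, and SOX6 moves from 0.0451 to 0.707.

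The share of cells with a new count was higher at 4 h in RRAD, CDKN1C and S100P. New RRAD RNA was found in 3.11% of cells at 2 h (37 of 1189, exact binomial interval 2.20 to 4.26) and in 11.4% at 4 h (119 of 1045, 9.52 to 13.5). These intervals cover the sampling of cells within 1 culture and leave out differences between cultures and between barcodes. When cells were thinned to 3000 new counts each, leaving out 142 shallower cells at 2 h and 197 at 4 h, the expected shares were 2.09% and 8.76%. S100P was found in 17.0% of cells at 2 h and 29.7% at 4 h (11.5% and 22.7% thinned). All cells were of 1 line, so no cell type lacking these genes gave a background, and at 0 h 0.521% of cells had a new RRAD count. Cells with new RRAD RNA held 1.65 such counts on average at 2 h and 2.24 at 4 h. Both the share of cells and the counts per positive cell were thus higher at 4 h.

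The 48 genes still climbing also included genes of higher level, of which CALD1 and ANKRD1 were chosen after their values were seen. TFCP2L1, an epithelial transcription factor, stood at 8.56 CPM at 0 h, 108 at 2 h and 191 at 4 h, and at 214, 199 and 202 CPM later (4 h/2 h ratio 1.76, 1.61 to 1.94). CALD1, which encodes the actin- and calmodulin-binding protein caldesmon, was the most abundant non-keratin gene of the class, at 109, 460, 793, 916, 945 and 895 CPM. KRT8, a simple epithelial keratin, stood at 498, 847, 1300, 1371, 1391 and 1494 CPM, with a ratio of 1.53. Its partner KRT18, in the group between the bounds, had a ratio of 1.56, and the 2 genes overlap on opposite strands. ANKRD1, a nuclear ankyrin repeat protein, kept a rising order at 87.1, 196, 344, 561, 696 and 798 CPM, so that 10 h was 2.32-fold above 4 h.

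The 22 genes first induced in the second window had new RNA at 2 h near its 0 h level, by the bound above. TFEB, a transcription factor that drives lysosome genes, stood at 11.7 CPM at 0 h and 11.9 at 2 h, then at 26.6, 26.0, 27.6 and 27.6 CPM (4 h/2 h ratio 2.25, 1.71 to 2.96, from 85 and 158 new counts). The 0 h and 2 h values lay side by side, and the 4 later values lay together above them. RBFOX3, an RNA-binding splicing regulator best known in neurons, stood at 68.7 and 82.0 CPM before and 158 CPM at 4 h (1.92, 1.73 to 2.13), then at 122, 97.3 and 108 CPM. Its level was thus highest at 4 h. RP11-553L6.5, a long noncoding RNA, had the highest ratio of the class, 3.08, at 32.3, 29.3 and 90.2 CPM over 0, 2 and 4 h, and is named here after its value was seen.

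AHNAK2, a very large scaffold protein, was the most abundant gene of this class, at 237, 224, 389, 388, 350 and 392 CPM (1.74, 1.63 to 1.86). ATOH8, a bHLH transcription factor, stood at 58.8, 62.6, 113, 117, 116 and 134 CPM (1.81, 1.60 to 2.05), and KLF13, a zinc finger factor, at 101, 88.3, 149, 145, 143 and 137 CPM (1.68, 1.52 to 1.87). CNN2, an actin-binding calponin, stood at 42.7, 46.7, 77.04, 82.0, 61.9 and 53.2 CPM (1.65, 1.43 to 1.90). Of the 22 genes, 15 were 1.5-fold or more above 0 h at 6 h and none was below, beside 683 above and 415 below of the 9159 measured genes. The class rule sets much of this, since at 4 h 15 of the 22 were that far above 0 h. JUNB, an AP-1 subunit, was also of this class, at 72.6, 68.9, 110, 116, 101 and 97.5 CPM.

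The 9 recovering genes were lower at 2 h than at 0 h and higher again at 4 h. AJUBA, a LIM domain protein of cell junctions and the Hippo pathway, stood at 105, 37.7, 69.6, 95.1, 102 and 106 CPM (4 h/2 h ratio 1.85, 1.58 to 2.16). NUAK2, an AMPK-related kinase, stood at 112, 51.5, 91.2, 117, 137 and 139 CPM (1.77, 1.55 to 2.03). The secreted matricellular protein gene CYR61 stood at 142, 82.0, 133, 168, 183 and 171 CPM (1.62, 1.45 to 1.805). For these 3 genes the 2 h culture was the lowest of the 6, and the 10 h value was at or above the 0 h value.

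BHLHE40, a bHLH repressor of clock genes, stood at 135 CPM at 0 h, 39.1 at 2 h and 62.2 at 4 h, and at 84.9, 100 and 88.99 CPM later (4 h/2 h ratio 1.59, 1.36 to 1.87). It had regained part of its 0 h level by 10 h. CDKN2C, which encodes the cell cycle inhibitor p18INK4c, stood at 30.4, 16.6, 30.01, 27.2, 22.5 and 24.4 CPM (1.81), and PPP1R18, a targeting subunit of protein phosphatase 1, at 33.0, 14.6, 27.0, 24.6, 22.2 and 26.2 CPM (1.84). At 6 h none of the 9 genes was 1.5-fold above 0 h and 2 were 1.5-fold below it, beside 683 above and 415 below of the 9159 measured genes. At 4 h 3 of the 9 were that far below.

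**Figure D3:**
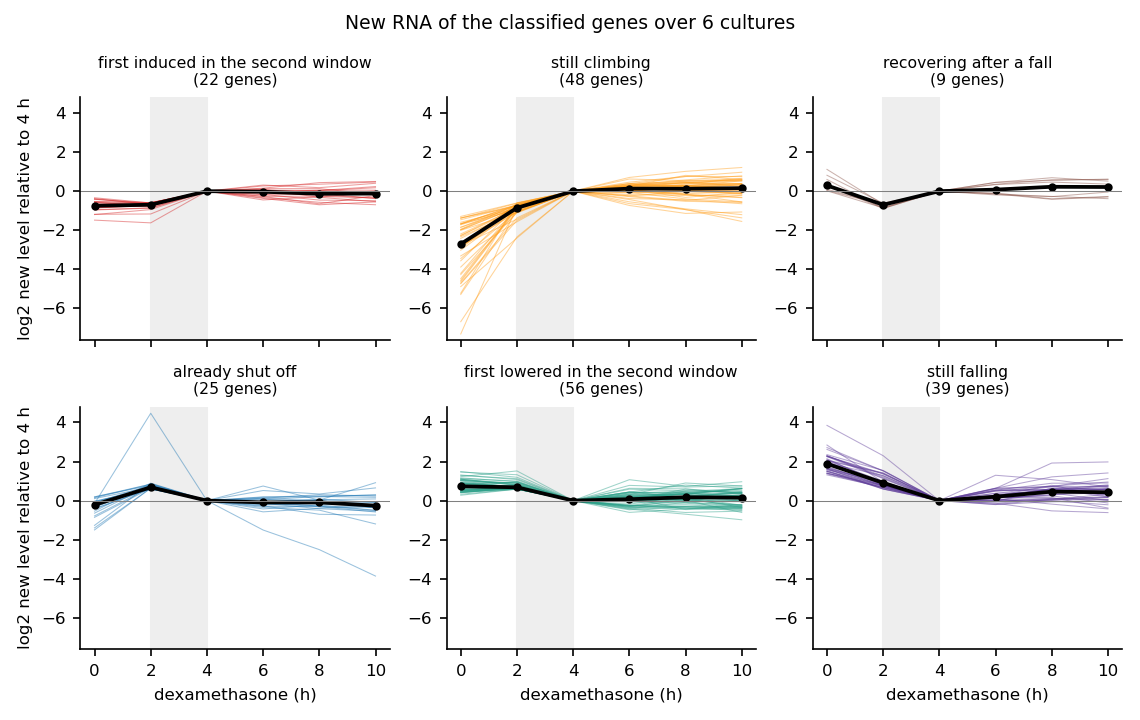
New RNA of every classified gene over the 6 cultures as the log2 level relative to 4 h, with the class median in black and the second window shaded. The courses between 0, 2 and 4 h follow from how the classes were defined. At 10 h the class medians lie between -0.26 (already shut off) and 0.43 (still falling).

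The 25 genes already shut off were higher at 2 h than at 0 h and lower again at 4 h. The name marks the fall after 2 h and not an end of synthesis. At 4 h 6 of the 25 were still 1.5-fold or more above 0 h and none was that far below it. CA12, a membrane carbonic anhydrase, stood at 324 CPM at 0 h, 523 at 2 h and 293 at 4 h, and at 238, 238 and 228 CPM later (1.79-fold lower at 4 h than at 2 h, 1.69 to 1.89). AKAP12, a scaffold for protein kinase A, stood at 333, 656, 414, 450, 511 and 486 CPM (1.59-fold lower, 1.51 to 1.67). RGS20, which speeds GTP hydrolysis by G proteins, stood at 164, 279, 174, 158, 130 and 119 CPM (1.60-fold lower, 1.49 to 1.73). In CA12 and RGS20 the values from 6 h on lay below the 0 h value, whereas those of AKAP12 stayed above it.

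TMEM120B, a membrane protein gene, stood at 106, 232, 135, 126, 141 and 126 CPM (1.72-fold lower at 4 h), and SLC22A23, an orphan transporter of the organic ion family, at 46.1, 73.0, 40.6, 37.6, 37.8 and 34.8 CPM (1.796-fold lower). FSTL4, a follistatin-like gene named here after its values were seen, did not stop at its 4 h level: it stood at 17.9, 49.7, 30.9, 10.9, 5.42 and 2.12 CPM, 14.5-fold lower at 10 h than at 4 h. Of the 25 genes, 5 were 1.5-fold or more above 0 h at 6 h and 1 was below, beside 683 above and 415 below of the 9159 measured genes.

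SOX6, a transcription factor of the SOX family, ranked first among all lower genes by this rule, and 1 barcode decided its value. New SOX6 RNA stood at 4.55 CPM at 0 h, 112 at 2 h and 5.06 at 4 h, a 22.2-fold lower level at 4 h (15.4 to 33.1). Of its 804 new counts at 2 h, 758 (94.3%) lay in 1 reverse transcription barcode that held 23 cells, and all 23 of them had a count. Of the other 1166 cells at 2 h, 39 had a count. Without the fullest barcode of each culture the 4 h/2 h ratio was 0.707, not past 1.5-fold. Where these counts came from was not tested. SOX6 was the only called gene in new RNA with over 25% of its counts at either time in 1 barcode. Of all 9159 measured genes 2 had such a share, and the median was 4.73%. SOX6 remains among the 172 lower genes and the 25 genes already shut off as counted here.

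The 56 genes first lowered in the second window were near their 0 h level at 2 h. KIRREL3, an immunoglobulin-type adhesion molecule, stood at 323 CPM at 0 h and 294 at 2 h, then at 118, 142, 146 and 115 CPM (2.51-fold lower at 4 h than at 2 h, 2.30 to 2.73). In the cells between the quartiles of depth its ratio was 0.475 instead of 0.399, still past 1.5-fold but outside that interval. SFMBT2, a Polycomb-group protein, stood at 201 and 179 CPM and then at 82.1, 86.2, 91.6 and 96.9 CPM (2.18-fold lower, 1.96 to 2.42). FAT3, a large protocadherin, stood at 54.2 and 44.4 CPM and then at 19.4, 22.8, 19.5 and 12.7 CPM (2.29-fold lower, 1.84 to 2.86). In each of these 3 genes the 4 cultures from 4 h on lay below the first 2. KIRREL3 overlaps ST3GAL4 on the opposite strand, and PPL, AHNAK2, TMEM120B, SLC22A23, TFPI2, SOX6 and JUNB likewise overlap a neighbour, so their values are uncertain in the same way as that of SYNC.

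TFPI2, a serine protease inhibitor of the extracellular matrix, stood at 147, 174, 89.2, 104, 121 and 89.6 CPM (1.95-fold lower, 1.76 to 2.16). COL27A1, a fibrillar collagen gene, stood at 68.0, 69.2, 36.4, 29.8, 29.4 and 28.9 CPM (1.90-fold lower, 1.62 to 2.24). IGF1R, the receptor of insulin-like growth factor 1, had the highest 2 h level of the class and is named for that after its value was seen: it stood at 915, 1012, 663, 643, 701 and 656 CPM (1.53-fold lower). At 6 h 33 of the 56 genes were 1.5-fold or more below 0 h and none was above, beside 415 below and 683 above of the 9159 measured genes. The class rule sets much of this, since at 4 h 37 of the 56 were that far below 0 h.

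The 39 genes still falling were lower in both windows. NAV3, a microtubule-associated protein, stood at 94.8, 32.4, 6.57, 10.1, 24.9 and 25.9 CPM (4.92-fold lower at 4 h than at 2 h, 3.50 to 7.10, from 232 and 39 new counts). Its 4 h culture was the lowest of the 6, and 10 h was 3.94-fold above 4 h. The share of cells with a new NAV3 count was 30.4% at 0 h and 14.5%, 2.78% and 9.06% after 2, 4 and 10 h.

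PDE1C, a calmodulin-dependent phosphodiesterase, stood at 222, 104, 36.1, 32.9, 25.1 and 23.6 CPM (2.87-fold lower, 2.46 to 3.36). NHS, a regulator of actin and cell shape, stood at 383, 206, 80.2, 79.2, 79.5 and 69.2 CPM (2.57-fold lower, 2.31 to 2.85). SLC7A11, the cystine/glutamate exchanger that supplies cystine for glutathione, stood at 674, 429, 163, 197, 242 and 248 CPM (2.63-fold lower, 2.45 to 2.83, from 3077 and 968 new counts). Its ratio was 0.449 instead of 0.380 with equally weighted cells, still past 1.5-fold but outside that interval. PDE1C and NHS had no higher level after 4 h, whereas SLC7A11 was higher at each later time than at 4 h, yet below its 2 h level.

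SLC7A11 was found in 76.7% of cells at 2 h and in 44.0% at 4 h (63.6% and 33.4% thinned). CXCL5, a neutrophil-attracting chemokine, stood at 107, 60.8, 20.9, 32.4, 48.5 and 55.8 CPM (2.91-fold lower, 2.38 to 3.58), so that 10 h was 2.67-fold above 4 h. CCL2, a monocyte-attracting chemokine, stood at 69.7, 30.6, 10.6, 12.9, 15.9 and 16.1 CPM (2.88-fold lower, 2.16 to 3.87, from 219 and 63 new counts). In the cells between the quartiles of depth its 4 h/2 h ratio was 0.691 instead of 0.348, which is not past 1.5-fold. EBF1, a transcription factor, stood at 67.4, 42.8, 16.02, 18.0, 24.5 and 18.2 CPM (2.67-fold lower).

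The 2 secreted semaphorins among the ranked genes had their lowest level at 4 h. SEMA3A stood at 171, 91.9, 35.2, 86.6, 74.3 and 57.6 CPM (2.61-fold lower, 2.23 to 3.06), and SEMA3E, between the bounds in the first window, at 32.6, 23.6, 7.92, 13.3, 13.8 and 20.4 CPM (2.98-fold lower, 2.14 to 4.20). In the cells between the quartiles of depth the SEMA3A ratio was 0.547 instead of 0.383, still past 1.5-fold but outside that interval. STK32B, a protein kinase gene also between the bounds, stood at 202, 136, 54.1, 61.7, 58.4 and 61.3 CPM (2.52-fold lower). After 4 h STK32B remained near its new level, while SEMA3A at 6 h was close to its 2 h level.

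Over all 172 lower genes, 32 were 1.5-fold or more higher at 10 h than at 4 h and 8 were lower still. Of the 39 still falling, 15 were higher at 10 h and 1 was lower. Of the 99 higher genes, 10 were higher again at 10 h and 7 were lower. Over all measured genes, 168 were higher and 232 lower at 10 h than at 4 h. These ratios share the 4 h culture with the ratios that chose the genes. The genes named next were chosen after their values were seen. The higher genes that were lower at 10 h included ABCC8, a subunit of ATP-sensitive potassium channels, at 39.3 CPM at 4 h and 13.4 at 10 h, CKB, the brain-type creatine kinase, at 98.1 and 42.7 CPM, and CORO2A. ANKRD1, IL18 and FGA, which encodes the fibrinogen alpha chain, had the highest 10 h/4 h ratios of the higher genes, at 2.32, 1.98 and 1.96.

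In whole RNA, 187 of 12360 measured genes were higher at 4 h than at 2 h (1.51%) and 121 were lower (0.979%). New counts are part of the whole counts. Of the genes higher in whole RNA, 55 were also called higher in new RNA (29.4% of the whole RNA calls and 55.6% of the new RNA calls), and 46 were called lower in both (38.0% and 26.7%). A further 84 of the higher and 55 of the lower genes in whole RNA were not measured in new RNA. At these settings calls were thus mostly higher in whole RNA and mostly lower in new RNA. The size of both majorities depended on the settings. In new RNA lower genes outnumbered higher genes under every alternative, though less so with library totals (123 higher and 137 lower). In whole RNA higher genes outnumbered lower ones under every alternative but 1. There, 223 were higher and 205 lower in the cells between the quartiles of depth. With no minimum count the order was reversed, at 4029 higher and 4128 lower.

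Single barcodes held over 25% of the counts of 25 of the 12360 genes measured in whole RNA. Of these 25 genes, 19 were among the 308 called in whole RNA, 9 higher and 10 lower. The ranking of protein-coding genes by whole RNA put several of the 19 first. RP11-297N6.4 stood at 0.673 CPM at 2 h and 11.6 at 4 h (17.3-fold higher), with 91.4% of its 4 h counts in 1 barcode and a ratio of 1.69 without the fullest barcodes. STYK1 (7.45-fold higher) and FSTL5 (4.73-fold higher) had ratios of 1.24 and 1.23 without them. Among the lower genes, DNAH9, XYLT1 and SOX6 went from ratios of 0.138, 0.302 and 0.162 to 1.04, 0.859 and 0.928, and none of these 3 was then past 1.5-fold. EPB42 (0.254 to 0.580) and S100Z (0.0361 to 0.169) remained lower. The source of these counts was not tested.

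Ranked without the genes that had over 25% of their counts in 1 barcode, a choice made after these shares were seen, the higher genes in whole RNA were led by HSD11B2, the enzyme that converts cortisol to inactive cortisone. Whole HSD11B2 RNA stood at 1.09, 1.32, 10.5, 15.2, 20.7 and 23.8 CPM over the 6 cultures, and 4 h was 7.99-fold above 2 h (5.86 to 11.1). CDKN1C followed at 0.413, 1.93, 14.6, 24.04, 33.0 and 33.8 CPM (7.54-fold, 5.83 to 9.87), and RRAD at 0.648, 2.33, 15.4, 27.4, 29.8 and 28.0 CPM (6.62-fold, 5.23 to 8.47). HSD11B2 and CDKN1C had a higher whole level at each time than at the one before.

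ALPP, the placental alkaline phosphatase, stood at 0.177, 1.18, 7.72, 16.2, 21.8 and 27.3 CPM in whole RNA (6.56-fold). STAC2, an adaptor of calcium channels, was 4.09-fold higher, UNC5B, a netrin receptor, 3.95-fold, and ENTPD2, an ecto-ATPase, 3.48-fold. CIDEC, a lipid droplet protein, was the most abundant of these 8 genes, at 2.83, 19.5, 57.3, 99.5, 138 and 162 CPM (2.94-fold, 2.69 to 3.22), while its new RNA was only 1.51-fold higher. HSD11B2, ALPP, STAC2, UNC5B and ENTPD2 had fewer than 200 new counts over both cultures.

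The lower genes in whole RNA on the same ranking were led by NAV3, at 34.9, 20.9 and 6.51 CPM at 0, 2 and 4 h (3.22-fold lower at 4 h than at 2 h). EREG, which encodes the EGF receptor ligand epiregulin, stood at 203, 85.1, 29.4, 29.7, 36.8 and 37.6 CPM (2.89-fold lower, 2.68 to 3.12). Its ratio was 0.407 instead of 0.346 in the cells between the quartiles of depth, still past 1.5-fold but outside that interval. CCL2 stood at 21.9, 10.8, 3.22, 3.88, 4.61 and 4.41 CPM (3.34-fold lower), a ratio of 0.299 that was 0.520 in the cells between the quartiles of depth. CYP24A1, the enzyme that breaks down active vitamin D, was by far the most abundant of the 8, at 712, 463, 207, 190, 240 and 288 CPM (2.24-fold lower, 2.17 to 2.31). NHS (2.29-fold lower), TRIML2 (2.47-fold), the thyroid hormone deiodinase DIO2 (2.35-fold) and OSGIN1 (2.21-fold), an oxidative stress response gene, completed the 8.

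Counts not called new, called pre-existing here, also held any new molecules that were missed. For each gene, its pre-existing level at 4 h was set against its whole level at 2 h, both as a share of whole counts. The median over measured genes was 68.8%, and over the 172 lower genes it was 49.1%. SLC7A11 stood at 59.8%, CXCL5 at 51.4%, NAV3 at 24.6%, EREG at 13.6% and CCL2 at 9.65%. Over the 48 genes still climbing the median was 112%, and in 28 of them it was above 100%, RRAD among them at 266%. The remainder therefore cannot be read as RNA kept from 2 h alone.

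Several genes lower in new RNA differed little in whole RNA at 4 h. CA12 was 1.79-fold lower in new RNA, while its whole level was 508 CPM at 2 h and 559 at 4 h. AKAP12 went from 622 to 596 CPM in whole RNA and TFPI2 from 436 to 383. New RNA made up 20.7% of CA12 counts at 2 h and 10.8% at 4 h. Of the 25 genes already shut off, 1 was called lower in whole RNA, as were 6 of the 56 first lowered and 24 of the 39 still falling. Of the 48 still climbing, 45 were called higher in whole RNA, and 7 of the 22 first induced. Of all 9159 genes measured in new RNA, 103 were called higher and 66 lower in whole RNA. SYNC was 2.19-fold higher in new RNA, and its whole level was 43.2 CPM at 2 h and 46.2 at 4 h.

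Members of 14 gene lists were then followed. In the list of glucocorticoid targets, 10 of 42 measured genes were higher in new RNA and none was lower, beside 1.08% and 1.88% of all measured genes. In whole RNA 19 of 43 were higher and none was lower. The median log2 4 h/2 h ratio of the list was 0.18 in new RNA and 0.40 in whole RNA, against -0.01 for all genes measured in new RNA in both. Several members were placed on this list after earlier results of these data were known, so its direction is not independent evidence.

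Some widely used target genes were less than 1.5-fold higher in new RNA, while KLF9, a Krüppel-like repressor, was past it (61.4 to 96.9 CPM, 1.58-fold). FKBP5, a cochaperone that dampens receptor activity, had new RNA of 63.1, 778, 1044, 1011, 1008 and 953 CPM (4 h/2 h ratio 1.34), and its whole level was 1.91-fold higher. TSC22D3, which encodes the anti-inflammatory protein GILZ, stood at 8.01, 179, 234, 227, 228 and 271 CPM (1.31 in new and 1.68 in whole RNA). PER1, a period gene of the clock, stood at 9.66, 102, 114, 98.8, 96.2 and 92.998 CPM (1.12 and 1.28). In all 3 genes the new RNA ratio was below 1.5 and the whole RNA ratio was larger.

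FGD4, an exchange factor for the GTPase CDC42, stood at 61.4, 1080, 1224, 1144, 1097 and 1106 CPM in new RNA (1.13), and ERRFI1, a feedback inhibitor of the EGF receptor, at 341, 1449, 1351, 1295, 1394 and 1354 CPM (0.933). The targets past 1.5-fold included genes of lower level, such as MT1X (12.7 to 26.3 CPM, 2.07-fold) and ETNK2, an ethanolamine kinase (13.3 to 27.0 CPM, 2.04-fold). The receptor gene NR3C1 itself stood at 1251, 959, 802, 874, 960 and 1025 CPM in new RNA. Its 4 h level was the lowest, 1.20-fold below 2 h, which is not past 1.5-fold.

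Among cytokine and NF-kappaB genes, none of 12 measured was higher in new RNA and 3 were lower, beside 1.08% and 1.88% of all measured genes: CXCL5, CCL2 and IRAK2, a kinase of the interleukin 1 receptor pathway (23.0 to 12.98 CPM, 1.77-fold lower). CCL2 was not past 1.5-fold in the cells between the quartiles of depth. In whole RNA 7 of 15 were lower and none was higher, beside 0.979% and 1.51% of all measured genes, and the 4 others were NFKB2 (34.9 to 17.4 CPM), RELB (22.1 to 13.9), NFKBIE (8.61 to 4.64) and TNFAIP2 (97.7 to 49.8). BIRC3, an inhibitor of apoptosis induced by both NF-kappaB and glucocorticoids, stood at 726 and 530 CPM, 1.37-fold lower. The list's median log2 ratio was -0.00 in new RNA and -0.31 in whole RNA.

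In the list of EGF receptor and MAP kinase feedback genes, 3 of 14 were lower in new RNA and none was higher, and 5 of 20 were lower and 1 was higher in whole RNA. Of all measured genes 1.88% were lower and 1.08% higher in new RNA, and 0.979% and 1.51% in whole RNA, which holds for each list below too. EREG went from 166 to 86.7 CPM in new RNA (1.91-fold lower), PHLDA1 from 167 to 103 (1.63-fold) and DUSP4, a MAP kinase phosphatase, from 148 to 95.4 (1.56-fold). The ligand genes TGFA and HBEGF were lower in whole RNA, at 6.197 and 3.32 CPM and at 4.01 and 2.67 CPM. EGFR itself stood at 808 and 816 CPM in new RNA.

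Of the immediate early genes, 3 of 19 were higher in new RNA, namely CTGF (116 to 213 CPM, 1.83-fold), CYR61 and JUNB (68.9 to 110 CPM, 1.59-fold), and none was lower. In whole RNA 3 were higher and 2 lower of 22, the lower ones being JUND (31.4 to 18.6 CPM) and IER3 (39.7 to 25.8). KLF6 stood at 342 and 250 CPM in new RNA, 1.37-fold lower. Of the clock genes, 1 of 12 was higher (BHLHE40) and 2 were lower in new RNA: NPAS2 (294 to 152 CPM, 1.94-fold) and ARNTL (20.5 to 13.3 CPM, 1.54-fold), which encode activators of the clock. In whole RNA none of 12 was called, with NPAS2 at 147 and 98.4 CPM.

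Among ion and water transport genes, 1 of 9 was higher in new RNA and 5 of 13 in whole RNA, with none lower. Among them were the 3 subunits of the epithelial sodium channel, SCNN1A (8.02 to 15.2 CPM in whole RNA), SCNN1B (4.599 to 6.93) and SCNN1G (2.38 to 5.65), and the water and glycerol channel AQP3 (10.2 to 28.0). The sodium channel is a main part of the machinery by which lung epithelium clears fluid. The median log2 ratio of the list was -0.03 in new RNA and 0.49 in whole RNA.

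Of the lipid and glucose genes, 4 of 21 were higher in new RNA (SLC2A14, SLC2A3, CIDEC and ACSL1, an acyl-CoA synthetase, 52.2 to 91.9 CPM) and none was lower. Of the metallothioneins, MT1X of 2 measured was higher in new RNA, and MT1F, MT1X and MT2A of 4 in whole RNA. MT2A was 1.35-fold higher in new RNA (205 to 277 CPM) and 1.94-fold in whole RNA (153 to 296 CPM). These genes are near-copies of each other, so their separate values are uncertain. In the stress response list, 1 of 10 was lower in new RNA, SLC7A11, and DDIT4, an inhibitor of mTOR signalling, stood at 440 and 603 CPM.

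In the list of SOCS, ID and SMAD feedback genes, 2 of 13 were lower in new RNA, TGFB2 (118 to 68.6 CPM, 1.72-fold) and BAMBI, a decoy receptor of the TGF-beta family (112 to 72.5 CPM, 1.54-fold), and none was higher. In whole RNA TGFB2 and SOCS2 were lower and BMP4 (1.85 to 4.99 CPM) was higher. No member of the lists of mRNA decay regulators (13 measured), heat shock genes (13), S-phase genes (21) and G2/M genes (24) was called in new or whole RNA. MKI67, a proliferation marker, stood at 840 and 796 CPM in new RNA. The G2/M list had a median log2 ratio of -0.05 in new RNA, with 15 of 24 genes below 1, and -0.07 in whole RNA, with 22 of 24. The S-phase list had a median of -0.11 in new RNA, with 17 of 21 genes below 1, and -0.07 in whole RNA, with 16 of 21. Over all genes measured in new RNA the median was -0.01 in both.

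**Figure D4:**
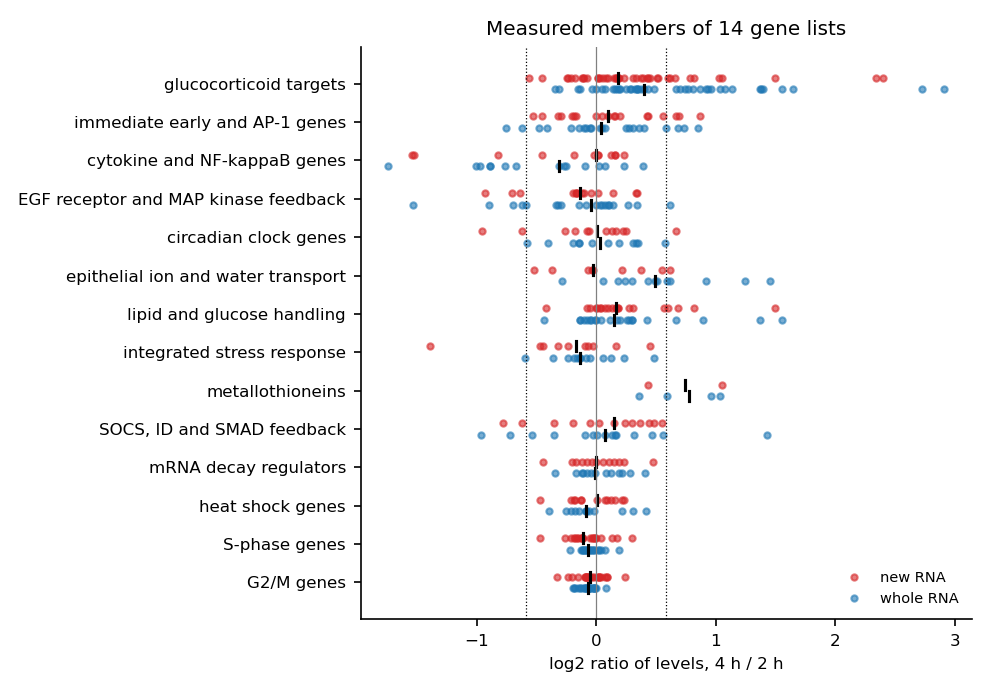
Log2 ratio of the 4 h to the 2 h level of each measured list member in new RNA and in whole RNA, with the median of each list as a black bar and dotted lines at 1.5-fold. The glucocorticoid targets spread to the right, further in whole RNA (median 0.40) than in new RNA (0.18), and the 4 lists at the bottom stay within the lines.

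Long genes were common among the lower genes. The genomic span of a gene was taken from the GENCODE v29 annotation, a later build than that of the counts, by gene identifier, and 9049 of the 9159 measured genes had one. The median span was 112 kb for the 172 lower genes, 34.4 kb for the 99 higher genes and 44.0 kb for all measured genes. Of the lower genes with a span, 54.1% were over 100 kb, against 24.8% of all. Among the named lower genes, NAV3 spans 888 kb, KIRREL3 580 kb and PDE1C 548 kb, whereas CCL2 and CXCL5 span 1.99 and 3.14 kb. SOX6, which was not past 1.5-fold without its fullest barcode, spans 773 kb.

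By span, 42 of 433 genes over 300 kb were lower in new RNA at 4 h than at 2 h (9.70%) and 6 were higher (1.39%), while of 1189 genes up to 10 kb 16 were lower (1.35%) and 20 higher (1.68%). The median log2 ratio ordered with span, from 0.03 up to 10 kb to 0.00, -0.02, -0.05 and -0.09 over 300 kb. Between 4 h and 6 h the medians had the opposite order, from -0.03 to 0.08, and 3.23% of the genes over 300 kb were higher at 6 h. Between 0 h and 2 h, 15.5% of these long genes were higher and 4.62% lower. The neighbouring steps share the 2 h or the 4 h culture. At the later steps, 2.31% of the genes over 300 kb were lower at 8 h than at 6 h and 0.462% were higher. Between 8 h and 10 h these shares were 1.39% and 0.462%. No shorter bin had more than 0.252% of genes lower or higher at either of these later steps. The intronic share of new RNA also differed between the cultures, with 50.2%, 47.6% and 48.2% after 2, 4 and 6 h, and its part in these differences was not tested.

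**Figure D5:**
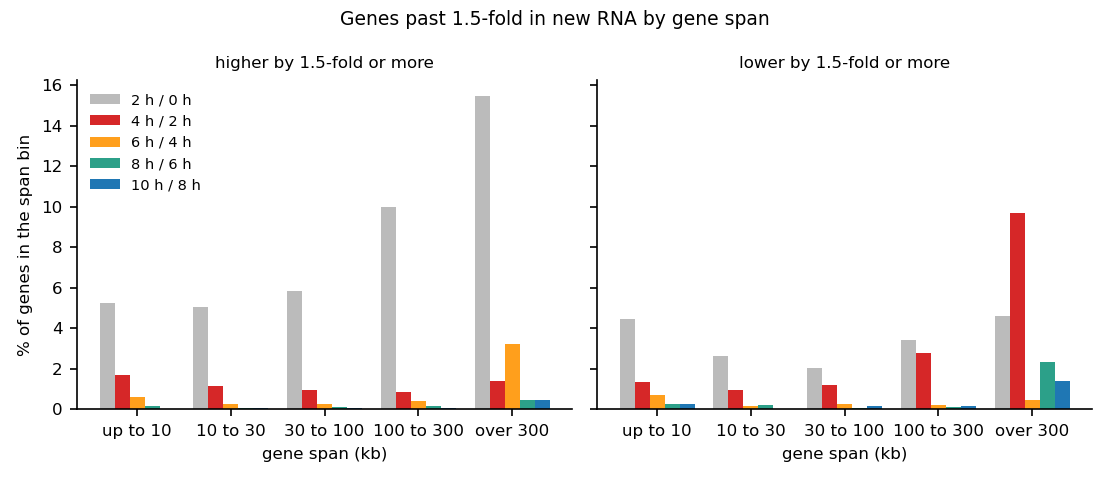
Share of measured genes in each span bin that were higher (left) or lower (right) by 1.5-fold or more in new RNA, for the 5 steps between neighbouring cultures. In the step from 2 h to 4 h the lower share reaches 9.70% over 300 kb, while the higher share is at most 1.68% in any bin.

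The A549 markers were present at both times. In whole RNA none of the 13 was called, and their summed level was 27866 CPM at 2 h and 28791 at 4 h. In new RNA 2 of 11 measured markers were higher, KRT8 and KRT18, and 1 was lower, AKR1C1, an aldo-keto reductase (387 to 236 CPM, 1.64-fold), which shares near-identical sequence with AKR1C2 and AKR1C3. EPCAM stood at 5.94 and 5.09 CPM in whole RNA. The fibroblast markers summed to 12.2 and 12.02 CPM in whole RNA, the leukocyte markers to 11.4 and 9.87, and the endothelial markers to 1.18 and 1.21.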

How the data were processed

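The authors deposited raw counts of genes by cell, in 1 matrix of all molecules and 1 of the molecules they called new. Per the submitters' processing notes Picard 1.105, SAMtools 1.3, STAR 2.5.2b and Trim Galore 0.4.1 were used, and hg19 was among the builds. No source used here says how duplicates were collapsed, how new molecules were called or whether counting used strand. The deposited annotation gives each cell's time and the authors' doublet score, whose highest value was 0.191, so no cell was left out and no further doublet caller was run. All 7404 A549 cells entered the normalization, and no cell name was shared with the other sample. No cell was filtered on its mitochondrial counts.

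Counts were summed per time and scaled by TMM (edgeR 4.0.16 in R 4.3.3) over the 6 cultures, separately for whole, new and pre-existing counts. Sums, ratios and Clopper-Pearson intervals were computed in Python 3.11.15 with numpy 2.4.6, scipy 1.17.1 and pandas 2.3.3, and the ratio step was tested on simulated data. The depth of each culture sets the interval of each ratio. Named genes were protein-coding: the 12 highest and 12 lowest in new RNA by the nearer interval bound, 8 and 8 in whole RNA, up to 6 per class and, per list, up to 6 called members in each direction and 2 others of high level, besides FKBP5, TSC22D3, PER1, FGD4 and NR3C1. Further names are marked as chosen after their values were seen, as were the list members called in whole RNA alone. The comparison, its rules and its gene lists were chosen with earlier results of these data known. The reverse transcription barcode was read from the cell name. Alternatives were other scalings, thresholds and minimums, equally weighted cells, cells of middle depth and, added after the data were seen, the omission of each gene's fullest barcode. Promoter motifs were not analysed here. A few genes that the naming rule selects are not reported here.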

Additional observations from a re-analysis of the deposited data

How the results depend on the processing

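Counts of genes past the threshold moved by over 1.5 times where the threshold, the minimum count or the cells were altered. With a 2-fold threshold new RNA gave 17 higher and 25 lower genes, of which 2 were first induced, 13 still climbing, 0 recovering, 1 already shut off, 6 first lowered and 7 still falling, and whole RNA gave 54 and 25. With a minimum of 50 counts the numbers were 348 and 493 in new RNA, by class 99, 110, 57, 102, 199 and 68 in the same order, and 477 and 402 in whole RNA. With no minimum they were 3152 and 3814, by class 744, 784, 1209, 1896, 933 and 340, and 4029 and 4128, with genes of very few counts included. Weighting each cell equally gave 149 higher genes in new RNA, 46 first induced and 16 recovering. Cells between the quartiles of depth, 620 at 2 h and 496 at 4 h, gave 199 higher genes in new RNA, 63 first induced, 37 recovering, 48 already shut off and 88 first lowered, and 205 lower genes in whole RNA. A flat band of 1.5-fold gave 42 first induced and 108 first lowered genes. The recovering genes numbered 19 with library totals and 19 with new counts scaled by whole counts. Where no construction of the alternative accounts for a move, the cause was not tested. The other 61 counts stayed within 1.5 times. Without each gene's fullest barcode, an alternative chosen after seeing the data, new RNA gave 103 higher and 182 lower genes (96 and 167 shared with those above) and whole RNA gave 175 and 114 (173 and 109 shared). Of the ratios of the ranked genes and of the always named ones under the alternatives, 258 lay within the counting interval of the reported ratio, which is wide for low genes, and 20 lay outside it. DNAH9 in whole RNA went to 1.038 without its fullest barcode, and CCL2 went to 0.691 in new and 0.520 in whole RNA in the cells between the quartiles of depth. No paired analysis was possible because each time was 1 culture and the labels give no replicate numbers. Intervals cover counting error only, and low genes are limited by depth.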

Other observations

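Several further genes, and OSGIN1 again, were past 1.5-fold lower in new RNA at 4 h than at 2 h. They were chosen after their values were seen, form no fixed list and were not tested as a group. HMOX1, heme oxygenase, stood at 60.3, 43.0, 24.8 and 46.2 CPM over 0, 2, 4 and 10 h. GCLM, the modifier subunit of the enzyme that starts glutathione synthesis, stood at 537, 396, 233 and 311 CPM at the same times (1.70-fold lower at 4 h than at 2 h). New RNA of OSGIN1 stood at 113, 73.0, 30.01 and 50.6 CPM (2.43-fold lower), SQSTM1, an autophagy receptor, at 677, 349, 232 and 267 CPM (1.503-fold), and MAFK, a small MAF partner of NRF2, at 120, 66.4, 33.9 and 50.9 CPM (1.96-fold). Other enzymes of redox metabolism were not past 1.5-fold: the 4 h/2 h ratio of new RNA was 0.696 for TXNRD1, 0.880 for NQO1, 0.925 for AKR1B10, 0.906 for AKR1C2 and 0.946 for ALDH3A1.

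Among genes higher at 4 h than at 2 h, AMOTL2, an angiomotin, stood at 103, 86.8, 136 and 189 CPM at 0, 2, 4 and 10 h. SMAD3, the TGF-beta signal transducer, was lower, at 963, 652, 421 and 464 CPM (1.55-fold lower at 4 h than at 2 h), and PRKCA, protein kinase C alpha, stood at 1037, 1325, 870 and 709 CPM (1.52-fold lower), whereas PRKCD, protein kinase C delta, stood at 9.39, 17.6, 37.6 and 37.1 CPM (2.14-fold higher). These genes too were chosen after their values were seen.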
